A study of Mus musculus with 8 samples.

Results

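The genes described here encode enzymes that conjugate reactive molecules with glutathione or sulfate, and enzymes that reduce or oxidise aldehydes and ketones, in mouse haematopoietic stem cells (HSCs) at postnatal day 5 (P5) and at 4 weeks of age. They were chosen by symbol alone: every gene with an exon model in the deposited tables whose symbol is that of a soluble or kappa glutathione S-transferase (Gst), a microsomal glutathione S-transferase (Mgst), an aldo-keto reductase of family 1 (Akr1), an aldehyde dehydrogenase of families 2 to 9 (Aldh) or a sulfotransferase (Sult). This gave 66 genes, made up of 19 Gst, 3 Mgst, 15 Akr1, 11 Aldh and 18 Sult genes. The tables held 23457 gene rows with an exon model, or 22050 genes once copies of a gene were summed.

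Glutathione S-transferases join the thiol of glutathione to electrophiles, and sulfotransferases move a sulfonate group from the donor PAPS to hydroxyl or amino groups. Aldo-keto reductases turn aldehydes and ketones into alcohols with NADPH, and aldehyde dehydrogenases oxidise aldehydes to acids. In HSCs, aldehyde dehydrogenase activity is widely used as a stain for primitive cells, and Aldh2 together with the Fanconi anaemia repair pathway is known for protecting HSCs from aldehydes made by their own metabolism.

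The study compared the transcriptome of bone marrow HSCs of the C57BL/6 strain at both ages, with 4 libraries of P5 and 4 libraries of 4 weeks, each made from 100 sorted cells. The sort took lineage-negative cells with CD150 and EPCR on their surface and no CD48. The design text also mentions HSCs that were cultured, but none of the 8 libraries carries that label. The labels do not say whether libraries of one age came from separate animals or from pooled ones, so the p-values measure the spread between these libraries, which may be technical.

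The libraries held 5775130 to 7470777 exon reads each, of which 83.5% to 85.5% were unique, and reads in introns made up 66.8% to 68.7% of all gene reads in 7 libraries and 60.1% in P5 replicate 1, which also had the lowest share of unique reads. P5 replicates 1 and 3 held 2 and 0 reads of Y-linked genes, while each of the other libraries held 1532 to 2293. Of the 10 genes of the stem cell and sort gate list, all were tested, 1 was higher and 1 lower at P5, and their summed level overlapped between the ages (4430 to 4880 CPM, normalised exon reads scaled to library size, at P5 and 4100 to 4660 CPM at 4 weeks). Summed levels of the erythroid list (585 to 913 against 89.1 to 146 CPM, Alas2 at 0 in every library), the myeloid list (243 to 494 against 190 to 227 CPM, Ctsg at 0) and the B cell list (34.1 to 51.7 against 20.9 to 26.1 CPM, Ms4a1 and Pax5 at 0) were higher at P5 in every library. Of the genes tested, 1 of 3 erythroid genes rose, 4 of 8 myeloid genes rose and 1 fell, and the 1 B cell gene tested rose. Of all genes tested, 16.5% passed the same test. The erythroid sum was almost all Hbb-bt (710 ± 151 against 96.8 ± 21.02 CPM), while Epb4.2 was level (6.33 and 6.73 CPM) and Klf1 (0.365 and 3.24 CPM) and Ermap (0.159 and 9.54 CPM) were higher on average at 4 weeks, where replicate 3 held 222 reads of Ermap and the others 0 to 5. The myeloid gene Csf1r had 1017 reads in P5 replicate 2 and 25 to 49 in the other P5 libraries. The megakaryocyte, T and NK cell, endothelial and stromal sums overlapped, though each of these lists held genes that passed. Of 6 tested megakaryocyte genes, Gp9 was higher and Itga2b lower at P5. Of 4 tested T and NK cell genes, Cd4 was higher and Nkg7 lower, and of 3 stromal genes Pdgfrb was lower. Of 7 tested endothelial genes, 3 were higher at P5: Cdh5 (10.8 ± 6.17 against 0.0421 ± 0.0841 CPM), Tek (151 ± 12.7 against 96.3 ± 10.9 CPM) and Cldn5 (5.71 ± 3.99 against 1.5 ± 0.26 CPM). Replicate 4 of 4 weeks stood apart on some stromal genes, with 364 reads of Cxcl12 and 41 of Lepr, where the others of that age had 2 to 5 and 0 to 6. Col1a2 had 87 reads in that library, but 144 and 153 in P5 replicates 1 and 2. The mast cell and basophil list was higher at 4 weeks, at 0.831 to 1.42 against 0.141 to 0.808 CPM, with 6 of its 7 genes in the table at 0 (Mcpt8, Tpsb2, Cma1, Fcer1a, Ms4a2 and Prss34). The part of these other cell types in the results below was not tested.

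Most of the sulfotransferase genes were not detected in these cells, while each of the other 4 classes had several expressed members. No exon read in any library fell on 18 of the 66 genes (12 Sult, 3 Gst and 3 Akr1), and another 16 had at most 64 exon reads over all libraries and were kept out by the filter on low counts, so 32 were tested. Per kb of exon, the most abundant members were Aldh2 (98.6 CPM per kb at P5 and 125 CPM per kb at 4 weeks), Akr1a1 (110 and 94.6 CPM per kb) and Gstm1 (89.3 and 106 CPM per kb), the leading gene of its own class in each case. Sult1a1 led the sulfotransferases with 5.41 and 33.8 CPM per kb. Of the microsomal enzymes Mgst3 was the higher at P5 (13.9 CPM per kb, against 12.2 for Mgst1) and Mgst1 at 4 weeks (8.27 against 6.55 for Mgst3).

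With edgeR's quasi-likelihood test and Benjamini-Hochberg adjustment over all genes, 1 member was higher at P5 (Mgst3) and 7 were lower (Sult1a1, Gstt1, Gstt3, Gstk1, Akr1c19, Akr1c13 and Aldh2). These 8 were 25.0% of the members tested, where 16.5% of all 12235 genes tested passed the same threshold, 7.99% higher at P5 and 8.55% lower. Without replicate 4 of 4 weeks, the library that stood apart on Cxcl12 and Lepr, 1 member was higher and 4 were lower of 33 tested. In that fit 12.1% of all 12387 genes tested passed, 5.67% higher at P5 and 6.46% lower. The median log2 fold change (P5 over 4 weeks) was -0.097 over the 32 members and -0.004 over all genes tested, and the members' median was the same with Akr1c19 at its bound. Whatever their p, 13 members had a positive and 19 a negative fold change. The lists of members and of markers were drawn up with earlier results of these data known, so the direction is described and has no test of its own.

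**Figure D1:**
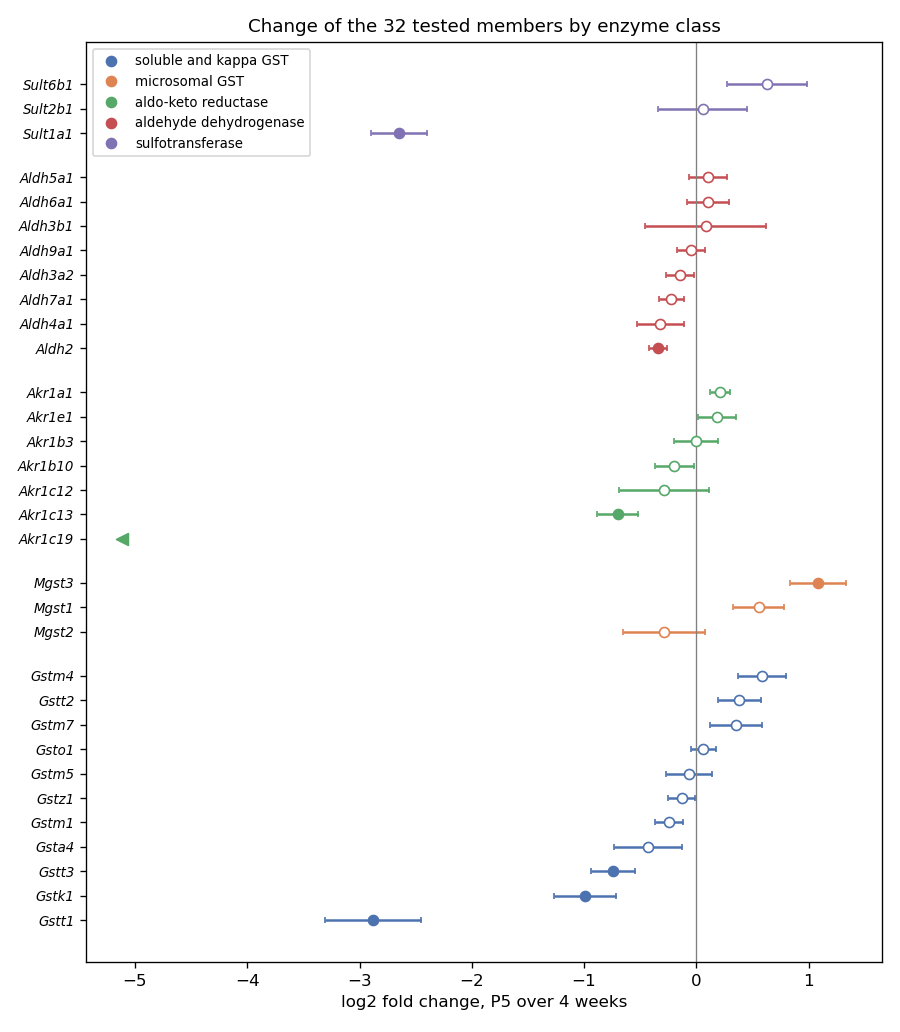
Log2 fold change of normalised exon reads, P5 over 4 weeks, for the 32 tested genes by enzyme class; points are edgeR estimates, bars are standard errors, and filled points passed an adjusted p of 0.05. The triangle marks the bound for Akr1c19, which had no exon read at P5. The filled points lie to the left of 0 in all classes but the microsomal glutathione S-transferases.

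As sums, 2 classes did not overlap between the ages. The summed level of the sulfotransferases was 19.7 ± 4.37 CPM at P5 and 62.0 ± 12.9 CPM at 4 weeks (SD, n = 4 each), with Sult1a1 giving 76.3% of the class over all libraries. The microsomal glutathione S-transferases summed to 28.9 ± 2.23 CPM at P5 and 20.5 ± 5.27 CPM at 4 weeks. The sums of the soluble and kappa glutathione S-transferases (313 ± 47.8 and 349 ± 24.7 CPM), the aldo-keto reductases (260 ± 34.2 and 255 ± 13.7 CPM) and the aldehyde dehydrogenases (471 ± 45.5 and 543 ± 16.9 CPM) overlapped. In bulk samples, fewer cells that express a gene and less RNA of it per cell cannot be told apart.

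Sult1a1, the phenol sulfotransferase, was the member with the smallest p. Its gene lies on chromosome 7 at 126672865 to 126690443 (GRCm38.p6, as are all positions here). Its normalised exon reads were 4.36, 9.95, 10.7 and 9.45 CPM in P5 replicates 1 to 4 and 56.1, 35.8, 68.2 and 54.99 CPM in the libraries of 4 weeks. The lowest library of 4 weeks was above every P5 library. Expression was 6.28-fold lower at P5 (log2 fold change -2.65, SE 0.25, adjusted p = 1.12e-05), resting on 229 reads at P5 and 1365 at 4 weeks, 94.0% of them unique. Reads that crossed its exon junctions numbered 28 at P5 and 384 at 4 weeks.

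The reads in the introns of Sult1a1 differed less between the ages than its exon reads. They numbered 48, 73, 108 and 149 in the P5 libraries and 151, 93, 143 and 162 at 4 weeks, groups that overlapped, and the fit to intron reads gave -0.50 on the log2 scale (SE 0.27, adjusted p = 0.223). The log2 ratio of exon to intron reads, taken relative to the same ratio over the whole library, was 0.28 ± 0.42 at P5 and 2.38 ± 0.12 at 4 weeks, a difference of -2.10 with no overlap. By a two-sided exact permutation test over libraries p was 0.0286, the smallest that 4 against 4 allows. After Benjamini-Hochberg adjustment over the 28 members with both kinds of read tested it was 0.267, so this ratio did not pass. As no p could be smaller, passing needed many members at that p together. The adjusted value therefore does not decide whether the ratio differed.

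The 300 bases around the RefSeq start of Sult1a1 used here (250 upstream and 50 downstream, chr7:126676369-126676668, minus strand, GRCm38.p6) are shown because this gene had the smallest p of the members. They start inside the span of the gene, so this is 1 of its annotated starts. The window holds 0 CpG and none of the 4 motifs searched below, and so no capitals.
Sult1a1 promoter: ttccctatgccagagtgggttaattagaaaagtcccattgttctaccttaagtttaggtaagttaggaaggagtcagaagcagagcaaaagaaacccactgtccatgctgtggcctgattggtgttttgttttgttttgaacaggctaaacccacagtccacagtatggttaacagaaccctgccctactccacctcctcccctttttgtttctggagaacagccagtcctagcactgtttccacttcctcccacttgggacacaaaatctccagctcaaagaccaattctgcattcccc

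The other sulfotransferases were near or below the limit of what could be tested. The 7 genes of the Sult2a cluster on chromosome 7, which act on hydroxysteroids, had no exon read, and neither had the oestrogen sulfotransferase Sult1e1. Within the 869 kb of that cluster there were intron reads, such as 97 at P5 and 87 at 4 weeks for Sult2a4. Sult2b1, a sulfotransferase of cholesterol and pregnenolone, was at 3.96 ± 1.57 and 3.79 ± 1.35 CPM (adjusted p = 0.942), with 28.4% of its reads unique. Sult6b1, at 5.29 ± 1.55 and 3.40 ± 1.17 CPM (log2 fold change 0.63, adjusted p = 0.26), had only 2.2% unique reads and overlaps another gene model, so its level is uncertain.

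Of the 3 tested theta genes, Gstt1 and Gstt3 were lower at P5. Gstt1, a theta enzyme known for acting on small halogenated alkanes, lies on chromosome 10 at 75783813 to 75798584. It was at 0.954, 1.40, 1.29 and 0.423 CPM in the P5 libraries and at 8.69, 4.83, 10.6 and 6.10 CPM at 4 weeks, with no overlap. The fold was 7.38 lower at P5 (log2 fold change -2.88, SE 0.43, adjusted p = 0.000491), from 27 reads at P5 and 190 at 4 weeks. Its intron reads fell too, from 335 at 4 weeks to 73 at P5 (log2 fold change -2.18, SE 0.38, adjusted p = 0.0023).

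Its neighbour Gstt3 lies at 75774117 to 75781422. It was at 14.0, 16.6, 10.8 and 12.7 CPM at P5 and at 18.2, 21.02, 31.0 and 20.8 CPM at 4 weeks, again with no overlap. This was a 1.67-fold lower level at P5 (log2 fold change -0.74, SE 0.20, adjusted p = 0.0197), and its introns gave -1.49 (SE 0.45, adjusted p = 0.0392). The call for Gstt3 was lost on leaving out P5 replicate 3 (adjusted p = 0.0608), P5 replicate 4 (0.0539) or replicate 3 of 4 weeks (0.0671), and when only the 6 libraries holding Y-linked reads were kept (0.142). Over the 22 alternatives of the processing it ranged from 0.00687 to 0.142. Gstt2, the most abundant theta gene per kb, was at 29.3, 36.5, 20.2 and 21.2 CPM at P5 and 24.0, 19.7, 21.4 and 17.2 CPM at 4 weeks (log2 fold change 0.38, SE 0.20, adjusted p = 0.207). Gstt4, between Gstt1 and Gstt2, had no exon read.

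The theta genes span 63.3 kb. The log2 ratio of Gstt1 to Gstt2 was -4.18 ± 0.45 at P5 and -1.43 ± 0.39 at 4 weeks, and that of Gstt3 to Gstt1 was 3.25 ± 0.48 and 1.56 ± 0.42. The libraries of the ages did not overlap in either ratio (two-sided exact permutation p = 0.0286, the smallest possible). Neither passed after Benjamini-Hochberg adjustment over the 8 pairs of tested neighbours with exon reads at both ages (adjusted p = 0.0572). As no p could be smaller, passing needed more of these pairs at that p. The adjusted value therefore does not decide whether the ratios differed.

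The start of Gstt1 (chr10:75797682-75797981, minus strand) is shown for the soluble transferase with the largest change. It lies inside the span of the gene, so this too is 1 of its annotated starts. Capitals mark the only motif match in it, to the interferon response element (GAAA, any 2 bases, GAAA) on the opposite strand, and the window has 8 CpG.
Gstt1 promoter: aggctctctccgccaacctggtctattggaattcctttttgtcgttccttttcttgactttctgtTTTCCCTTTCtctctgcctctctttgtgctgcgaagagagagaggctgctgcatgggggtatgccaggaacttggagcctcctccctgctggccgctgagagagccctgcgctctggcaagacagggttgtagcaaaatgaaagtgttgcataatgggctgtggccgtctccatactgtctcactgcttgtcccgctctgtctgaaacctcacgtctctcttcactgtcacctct

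Gstk1, the kappa enzyme of mitochondria and peroxisomes, was lower at P5 as well. Its gene lies on chromosome 6 at 42245935 to 42250441. Its levels were 5.45, 3.42, 5.66 and 5.36 CPM at P5 and 11.5, 6.38, 11.3 and 10.4 CPM at 4 weeks. The ages did not overlap, and the fold was 1.99 lower at P5 (log2 fold change -0.99, SE 0.27, adjusted p = 0.0244). The adjusted p rose above 0.05 and the call was lost without P5 replicate 2 (0.0542). The same held without replicate 1 (0.0763), 3 (0.0682) or 4 (0.0682) of 4 weeks, and among Y-positive libraries alone (0.0647). Over 21 alternatives the adjusted p ranged from 0.00886 to 0.0763.

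Of the 4 tested mu genes, 0 were called by edgeR or by DESeq2 and 1 (Gstm4) had an unadjusted p under 0.05, as had 29.9% of all genes tested. The mu genes share a cluster of 149 kb on chromosome 3, and the leading gene, Gstm1, was at 147, 137, 103 and 103 CPM at P5 and 139, 131, 164 and 147 CPM at 4 weeks (log2 fold change -0.24, SE 0.12, adjusted p = 0.201). Unique reads made up 73.5% for Gstm1. Gstm4, at the end of the cluster, was at 16.9, 16.6, 16.8 and 9.73 CPM at P5 and 8.53, 10.9, 11.4 and 9.28 CPM at 4 weeks. The P5 libraries other than replicate 4 lay above all of those of 4 weeks (log2 fold change 0.58, SE 0.22, adjusted p = 0.0835), and without P5 replicate 4 the value was 0.74 with an adjusted p of 0.0222 (0.0222 to 0.756 over 22 alternatives). The log2 ratio of Gstm1 to Gstm4 was 3.00 ± 0.32 at P5 and 3.80 ± 0.19 at 4 weeks with no overlap (two-sided exact permutation p = 0.0286, adjusted p = 0.0572).

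The remaining soluble enzymes were not called. Gsto1, an omega enzyme that reduces dehydroascorbate and methylated arsenic, was at 59.9 ± 8.70 and 57.3 ± 2.22 CPM (log2 fold change 0.06, adjusted p = 0.757), a direction that turned to -0.041 without P5 replicate 2. Gstz1, which isomerises maleylacetoacetate in tyrosine breakdown, was at 35.5 ± 2.89 and 38.8 ± 3.59 CPM (-0.13, adjusted p = 0.498). Gsta4, the alpha enzyme that acts on 4-hydroxynonenal, was at 5.58 ± 1.11 and 7.52 ± 2.68 CPM (-0.43, adjusted p = 0.37). These groups overlapped. The alpha genes Gsta1 and Gsta2 had no exon read.

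Gstm2 was kept out by the filter with 4 exon reads at P5, all in replicate 1, and 43 at 4 weeks; it is named here after its values were seen. Its levels were 0.545 CPM in P5 replicate 1, 0 in the other P5 libraries, and 1.42, 1.55, 0.841 and 2.77 CPM at 4 weeks. With no filter the edgeR test gave it an adjusted p of 0.0337. The pi genes Gstp1 and Gstp2 are listed on several contigs under numbered names, which the symbol rule does not match, and are given here apart. Gstp1 was at 14.3 ± 3.64 and 13.5 ± 2.41 CPM (log2 fold change 0.09, adjusted p = 0.82), and none of its reads was unique.

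Mgst3, a membrane enzyme of leukotriene C4 synthesis and lipid peroxide reduction, was the only member called higher at P5. It lies on chromosome 1 at 167371966 to 167393841. Its levels were 9.41, 9.17, 8.89 and 7.76 CPM at P5 and 4.42, 4.48, 4.54 and 3.19 CPM at 4 weeks, with no overlap. Expression was 2.12-fold higher at P5 (log2 fold change 1.08, SE 0.25, adjusted p = 0.00863), from 238 and 104 reads, all unique. Its intron reads, 612 and 358, were higher as well (log2 fold change 0.82, SE 0.21, adjusted p = 0.0185). Restricted to the 6 libraries that held Y-linked reads the value was 1.03, with an adjusted p of 0.0786 (0.00144 to 0.0786 over 22 alternatives).

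Mgst1, a microsomal enzyme which also guards membranes against lipid peroxides, was at 17.7, 12.9, 13.6 and 15.9 CPM at P5 and 10.3, 6.03, 12.8 and 11.8 CPM at 4 weeks. The ages did not overlap, but the exon test did not pass (log2 fold change 0.55, SE 0.23, adjusted p = 0.122), while the test of its intron reads, 604 against 331, did (0.97, SE 0.29, adjusted p = 0.0346). Mgst2 overlapped at 5.02 ± 0.86 and 6.14 ± 3.05 CPM (-0.29, adjusted p = 0.649). Aldh9a1 lies 3.44 kb from Mgst3, and the log2 ratio of Aldh9a1 to Mgst3 was 3.20 ± 0.24 at P5 and 4.27 ± 0.26 at 4 weeks (two-sided exact permutation p = 0.0286, adjusted p = 0.0572).

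The start of Mgst3 (chr1:167393792-167394091, minus strand) is shown as that of the member that was higher at P5. It has 21 CpG, where the median over all 32851 promoters was 7, and capitals mark the core of the aryl hydrocarbon receptor element, GCGTG.
Mgst3 promoter: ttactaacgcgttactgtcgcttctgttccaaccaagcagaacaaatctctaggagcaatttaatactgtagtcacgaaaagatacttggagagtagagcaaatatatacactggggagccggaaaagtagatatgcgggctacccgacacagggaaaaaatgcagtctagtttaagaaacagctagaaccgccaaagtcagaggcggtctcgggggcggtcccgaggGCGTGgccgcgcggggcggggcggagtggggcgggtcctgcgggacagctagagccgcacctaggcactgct

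**Figure D2:**
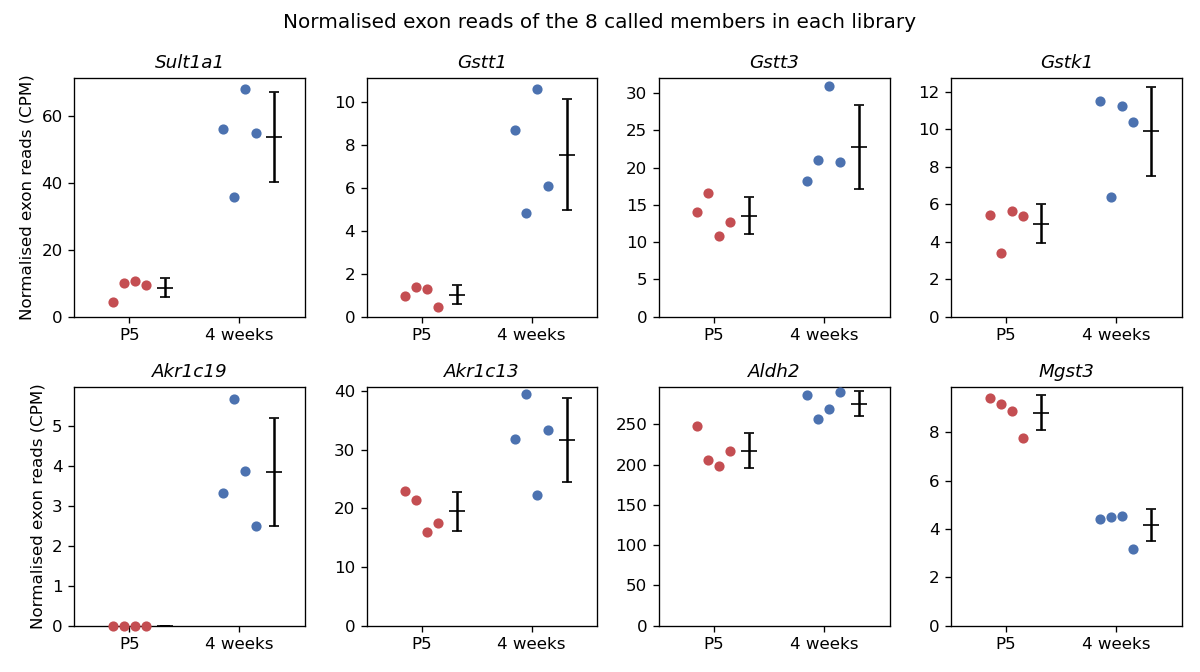
Normalised exon reads (CPM, linear axis from 0) of the 8 genes that passed the test, by age; each point is 1 library and the bar beside it the mean and SD of 4. The ages overlap in none of the panels but that of Akr1c13, and Mgst3 is the gene whose P5 points lie above.

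Akr1c19, an aldo-keto reductase of the 1C subfamily, whose members act on steroids and other carbonyls, had no exon read at P5. The gene lies on chromosome 13 at 4233503 to 4248361. It had no exon read in any P5 library and 21, 33, 23 and 18 reads at 4 weeks, which were 3.32, 5.69, 3.87 and 2.49 CPM. Against a floor of 3 reads over the P5 group (0.111 CPM), expression was at least 34.6-fold lower at P5 (adjusted p = 0.000315), a bound that covers counting error only. Junction reads numbered 0 and 31. Intron reads were 1, 1, 0 and 4 at P5 and 27, 18, 17 and 18 at 4 weeks (log2 fold change -3.58, SE 0.62, adjusted p = 0.00239).

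Akr1c13, 27.9 kb from it, was abundant at both ages and moderately lower at P5. It lies at 4191168 to 4205604 and was at 23.0, 21.5, 16.0 and 17.5 CPM at P5 and 31.8, 39.5, 22.2 and 33.4 CPM at 4 weeks. P5 replicate 1 lay above replicate 3 of 4 weeks, so the ages overlapped. The level was 1.62-fold lower at P5 (log2 fold change -0.70, SE 0.18, adjusted p = 0.018). This call was lost without P5 replicate 3 (adjusted p = 0.059) or 4 (0.0551), or without replicate 2 (0.0523) or 4 (0.0505) of 4 weeks, and among Y-positive libraries alone (0.0803), and over 22 alternatives the adjusted p ranged from 0.00466 to 0.0835.

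The intron reads of Akr1c13 differed more than its exon reads. They numbered 29, 14, 18 and 12 at P5 and 109, 66, 63 and 76 at 4 weeks, with no overlap (log2 fold change -1.97, SE 0.39, adjusted p = 0.00473). The log2 ratio of exon to intron reads relative to the library was 3.81 ± 0.59 at P5 and 2.43 ± 0.45 at 4 weeks, the opposite order to that of Sult1a1 (two-sided exact permutation p = 0.0286, adjusted p = 0.267).

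Akr1c12, named here since it lies next to Akr1c19 and resembles Akr1c13, was at 2.95 ± 1.22 and 3.64 ± 1.21 CPM (log2 fold change -0.29, adjusted p = 0.68). The ratios of Akr1c19 to its neighbours were not tested, as it had no exon read at P5. The other genes of the 560.0 kb cluster were Akr1c14 with 15 exon reads at each age, Akr1c21 with 9 and 1, and Akr1c18, Akr1c6 and Akr1c20 with none, and Akr1e1 at its end, at 38.4 ± 9.02 and 33.9 ± 5.31 CPM (log2 fold change 0.18, adjusted p = 0.518).

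Reads of Akr1c13 and Akr1c12 can be confused with each other, and those of Akr1c19 much less so. The coding sequences of all 3 have 972 bases (longest open reading frame in GENCODE M21). Akr1c13 and Akr1c12 differ at 37 positions (96.2% identity), whereas each differs from Akr1c19 at 216 (77.8%). Of the 50-base windows in their transcripts, 24.2% for Akr1c13 and 28.6% for Akr1c12 are found in another gene as well, most often in one another, and 76.9% and 73.7% of their reads were unique, against 100% for Akr1c19. The stretch from coding base 874 to 933 shows this. Capitals mark bases that differ from Akr1c13: 0 in Akr1c12 and 22 in Akr1c19.
Akr1c13 coding: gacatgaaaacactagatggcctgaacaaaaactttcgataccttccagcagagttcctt
Akr1c12 coding: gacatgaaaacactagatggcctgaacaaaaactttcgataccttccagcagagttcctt
Akr1c19 coding: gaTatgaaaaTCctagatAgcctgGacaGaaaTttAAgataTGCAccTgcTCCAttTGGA

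The promoters of these 3 genes are related in the same order: aligned end to end, the 300-base windows of Akr1c13 and Akr1c12 were identical at 93.4% of alignment columns, and those of Akr1c13 and Akr1c19 at 58.5%. That of Akr1c19 (chr13:4233490-4233789, plus strand) is shown because its exon reads were absent at P5. Capitals mark matches to the gamma-activated site TTCNNNGAA and, after it, to the antioxidant response element TGACNNNGC on the opposite strand.
Akr1c19 promoter: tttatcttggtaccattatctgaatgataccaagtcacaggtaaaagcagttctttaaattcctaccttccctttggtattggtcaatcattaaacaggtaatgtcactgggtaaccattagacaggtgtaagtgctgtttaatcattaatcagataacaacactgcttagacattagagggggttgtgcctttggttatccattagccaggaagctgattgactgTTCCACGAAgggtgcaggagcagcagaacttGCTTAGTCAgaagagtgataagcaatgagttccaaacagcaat

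**Figure D3:**
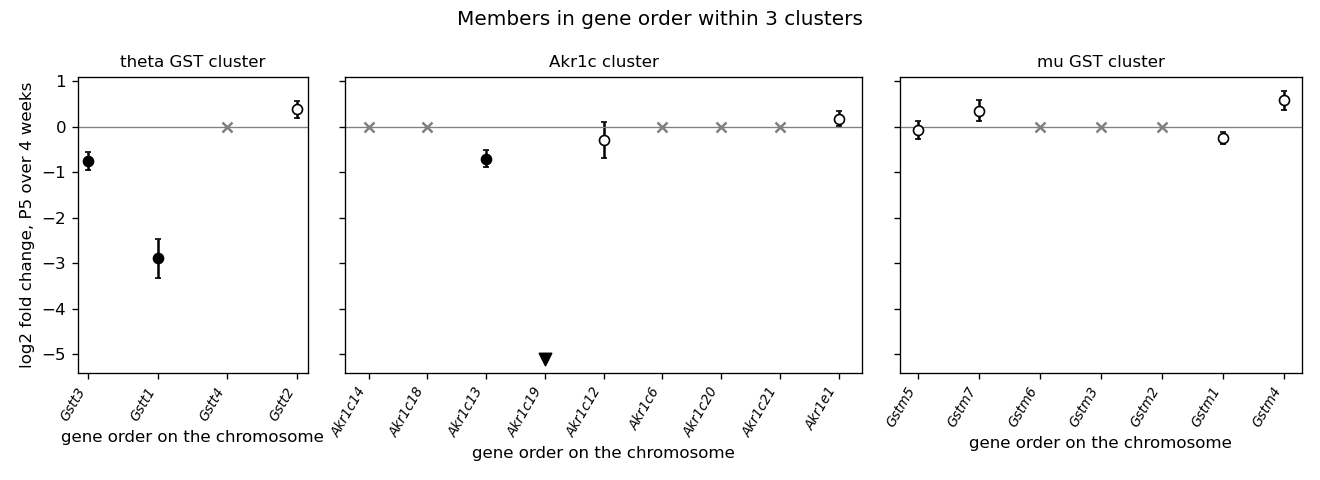
Log2 fold change of exon reads, P5 over 4 weeks, of members in gene order within the theta, Akr1c and mu clusters; points are edgeR estimates with standard errors, filled where called, and crosses at 0 mark genes with too few reads to be tested. The triangle is the bound for Akr1c19. Gstt1 and Akr1c19 lie far below tested neighbours that were not called, Gstt2 and Akr1c12.

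The most abundant aldo-keto reductase did not pass the test. Akr1a1, the general aldehyde reductase of vitamin C synthesis in mice, was at 179, 154, 147 and 139 CPM at P5 and 133, 133, 129 and 141 CPM at 4 weeks, with 1 P5 library inside the range of 4 weeks (log2 fold change 0.21, SE 0.09, adjusted p = 0.124; -0.067 for intron reads). The family 1B genes Akr1b10 (27.5 ± 4.84 and 31.5 ± 6.39 CPM) and Akr1b3, the aldose reductase (15.4 ± 4.00 and 15.5 ± 1.26 CPM), overlapped between the ages. Of the reads of Akr1b3, 48.7% were unique.

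Aldh2, the mitochondrial enzyme that clears acetaldehyde, was the most abundant of all members in CPM per kb at 4 weeks and fell by a small but separated amount at P5. The gene lies on chromosome 5 at 121566027 to 121593824. Its levels were 248, 206, 199 and 216 CPM at P5 and 286, 257, 270 and 291 CPM at 4 weeks, so that the highest P5 library was below the lowest of 4 weeks. The level was 1.27-fold lower at P5 (log2 fold change -0.34, SE 0.08, adjusted p = 0.0125), from 5916 and 7002 reads. Without replicate 4 of 4 weeks the adjusted p was 0.0529, and for intron reads alone the value was -0.30 (SE 0.13, adjusted p = 0.134, the highest of 22 alternatives, from 0.00229).

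The other 7 tested aldehyde dehydrogenases lay between -0.32 (Aldh4a1) and 0.11 (Aldh5a1) on the log2 scale, and 0 of them were called by edgeR or DESeq2 or had an unadjusted p under 0.05 (29.9% of all genes). Aldh9a1, which makes the carnitine precursor trimethylaminobutyrate, was at 85.8 ± 14.9 and 89.0 ± 9.84 CPM (log2 fold change -0.05, adjusted p = 0.832), and Aldh7a1, of lysine breakdown, was at 46.9 ± 5.28 and 54.6 ± 4.48 CPM (-0.22, adjusted p = 0.213). Aldh3a2, the fatty aldehyde dehydrogenase, was at 39.2 ± 5.61 and 43.3 ± 2.98 CPM (-0.15, adjusted p = 0.464). Aldh5a1 and Aldh6a1 had 19.5% and 35.8% unique reads and are uncertain. Aldh3a1, Aldh3b2 and Aldh8a1 had at most 7 exon reads over all libraries.

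Over the 32 tested members, 9 had no overlap between the ages, where 21.2% of all genes tested had none. These were the called genes other than Akr1c13, with Mgst1 and, seen only after the values were known, Gstm7 (10.1 ± 1.04 and 7.89 ± 1.78 CPM, adjusted p = 0.331). The same 8 members were called from unique exon reads alone (15.9% of all genes), by DESeq2 (19.0% of all genes) and by limma-voom (16.6%).

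Intron reads gave partly different calls. Of the 34 members tested on intron reads, 3 were higher at P5 (Mgst1, Mgst3 and Sult5a1) and 4 lower (Akr1c13, Akr1c19, Gstt1 and Gstt3). Of all 13180 genes tested on introns, 17.9% were called, 9.01% higher and 8.86% lower. Sult5a1 had 45 and 19 exon reads, too few for the exon test. Its raw intron reads were 77, 136, 104 and 47 at P5 and 22, 40, 20 and 27 at 4 weeks (log2 fold change 1.81, SE 0.39, adjusted p = 0.00767). The closest counts, 47 in P5 replicate 4 and 40 in replicate 2 of 4 weeks, came from libraries of 7072529 and 5775130 exon reads. The raw counts therefore do not show that the ages were apart after scaling.

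**Figure D4:**
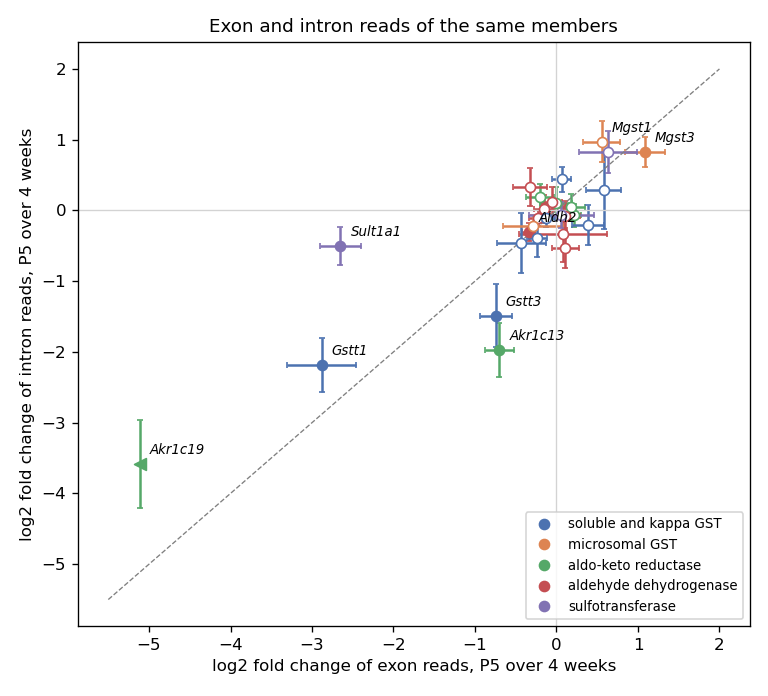
Log2 fold change (P5 over 4 weeks) of exon reads (x) and intron reads (y) for the 28 members tested on both, coloured by class, with standard errors; filled points were called on exon reads, and the dashed line marks equal change. Sult1a1 lies far above the line, at -2.65 for exons and -0.50 for introns, and Akr1c13 below it; the triangle is the bound for Akr1c19.

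Promoter windows of RefSeq genes on GRCm38.p6 were found for 54 of the 66 members, of which 27 were tested and 7 called; some have several starts, so the tested members have 35 windows. The motifs were searched on both strands, and none overlapped in the windows shown. The antioxidant response element TGACNNNGC was in 5 of the 35 windows, against 12.4% of all 32851 windows of that length, and the receptor element GCGTG was in 10, against 32.4%. The interferon response element was in 1 (3.44% of all) and the gamma-activated site in 4 (8.3%). Each motif was in 1 of the 8 windows of called members. Such matches describe the letters in these windows and not binding.

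Of 21 tested genes of glutathione synthesis, recycling and export, none was higher and 6 were lower at P5 (28.6% called, against 16.5% of all genes, median log2 fold change -0.15). Ggt5, which trims glutathione conjugates such as leukotriene C4, was 2.96-fold lower (8.24 ± 1.95 against 24.3 ± 7.76 CPM, log2 fold change -1.56, SE 0.26, adjusted p = 0.00098). The exporter Abcg2 was 1.58-fold lower (39.7 ± 5.12 against 62.6 ± 1.21 CPM, adjusted p = 0.0014), and Gclm, the modifier subunit of the rate-limiting glutamate-cysteine ligase, was 1.66-fold lower (42.7 ± 5.29 against 71.1 ± 12.4 CPM, adjusted p = 0.00239). The catalytic subunit Gclc, Me1, which makes NADPH, and Oplah, which recovers glutamate, were the other 3. The most abundant gene of the list, the conjugate exporter Abcc1, was at 230 and 254 CPM (adjusted p = 0.256).

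None of the 11 tested genes of sulfate donor supply and sulfatases passed at an adjusted p of 0.05 in the edgeR fit or by DESeq2, and 1 had an unadjusted p under 0.05 (29.9% of all genes), while Sult1a1 fell. Their median log2 fold change was 0.03, and the most abundant, Impad1, a phosphatase of the spent donor, was at 166 and 152 CPM. Among 26 other conjugating enzymes, 3 were higher and none lower at P5 (11.5%, against 16.5% of all genes). Ugt1a7c, whose last exons are shared with the other Ugt1a genes, was 2.23-fold higher (35.4 ± 5.85 against 15.8 ± 5.19 CPM, adjusted p = 0.00225). The glutathione-fold protein Clic1 was 1.29-fold higher (adjusted p = 0.0133, and 0.0575 in Y-positive libraries alone, with 0.00232 to 0.727 over 20 alternatives). The leukotriene cofactor Alox5ap was 1.30-fold higher (adjusted p = 0.0175).

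Other aldehyde and ketone oxidoreductases, with 33 tested, had 4 higher and 2 lower (18.2%, near the 16.5% of all genes). Aldh1a1, the retinaldehyde dehydrogenase, was at 0.347 ± 0.59 CPM at P5 and 12.4 ± 6.64 CPM at 4 weeks, 32.2-fold lower (log2 fold change -5.01, SE 0.72, adjusted p = 0.000367, 10 reads against 311), and the folate enzyme Aldh1l1 was 1.72-fold lower (23.0 ± 1.87 against 39.4 ± 3.85 CPM, adjusted p = 0.000837). Dhrs11, a short-chain reductase of ketosteroids, was 1.71-fold higher at P5 (51.9 ± 6.20 against 30.4 ± 4.98 CPM, adjusted p = 0.00205). Xdh, Hsd17b11 and Ptgr1 were the other 3 higher genes. Of 29 tested genes of Fanconi anaemia and crosslink repair, only Fancm was called, 3.45% of the list against 16.5% of all genes. Fancm, a DNA translocase of that pathway, was 1.35-fold higher at P5 (adjusted p = 0.0245). The call for Fancm was lost in 11 of 22 alternatives (adjusted p from 0.00681 to 0.197), among them leaving out P5 replicate 3 (0.0692) or 4 (0.0594) or replicate 1 (0.0617), 3 (0.0601) or 4 (0.0805) of 4 weeks.

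Genes of the aryl hydrocarbon receptor and NRF2 pathways, both known regulators of detoxification genes, were partly called. In the receptor list 1 of 9 tested genes was higher and 2 were lower at P5 (33.3%, against 16.5% of all genes). Ahr itself was 2.05-fold higher at P5 (64.2 ± 12.8 against 31.3 ± 8.59 CPM, log2 fold change 1.04, SE 0.19, adjusted p = 0.00234), whereas the shared target Nqo1 was lower (6.26 ± 0.53 against 10.7 ± 1.84 CPM, adjusted p = 0.0305). The call for Nqo1 was lost in 11 of 22 alternatives (0.0185 to 0.301), among them leaving out P5 replicate 3 (0.0604) or 4 (0.0756) or replicate 1 (0.0562), 2 (0.0897) or 4 (0.0735) of 4 weeks. In the NRF2 list 2 of 14 were higher and 4 lower (42.9%, median log2 fold change -0.07). Hmox1, the haem oxygenase, was 5.06-fold lower at P5 (3.13 ± 1.30 against 16.0 ± 5.71 CPM, log2 fold change -2.34, SE 0.32, adjusted p = 0.000257). Nfe2l2, which encodes NRF2, was 1.35-fold lower (adjusted p = 0.0167), as was its repressor Keap1 (1.26-fold, adjusted p = 0.0172), and Mafk and Txnrd1 were higher. The call for Nfe2l2 was lost without replicate 1 (0.0577) or 3 (0.0590) of 4 weeks (0.00611 to 0.291 over 22 alternatives), and that for Keap1 without replicate 1 of 4 weeks (0.0578) and in Y-positive libraries (0.0977; 0.00701 to 0.363 over 22 alternatives). The call for Txnrd1 was lost in 14 of 22 alternatives (0.0135 to 0.583), among them leaving out any 1 P5 library (0.0544 to 0.0894) or replicate 1 (0.131), 3 (0.111) or 4 (0.0992) of 4 weeks. Over all of these related lists, with each gene counted once, 11 of 142 tested genes were higher at P5 and 13 lower, 16.9% in all, near the 16.5% of all genes.

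Across the 8 libraries, the 5 genes whose log2 CPM followed that of Sult1a1 most closely were Wdtc1 (Pearson's r = 0.993), Ubr4 (0.990), Trim56 (0.990), Itgb3 (0.989) and Pura (0.984). All 5 were lower at P5 in the edgeR fit. Itgb3, an integrin of platelets and stem cells, differed most, at 14.0 CPM against 110 CPM at 4 weeks. As the libraries fall into 2 ages, these values mostly describe a shared difference between the ages and have no test.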

How the data were processed

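RNA from 100 sorted HSCs was profiled in each of 8 libraries, with a kit that does not mark strand. The authors deposited counts of total and unique reads over exons, introns and exon junctions, with the exon length of each gene, per the file headers. The submitters' processing notes name the build mm10, and no aligner or counter is named in the sources used. Total exon counts entered edgeR 4.0.16 under R 4.3.3 (TMM scaling, filterByExpr, quasi-likelihood, age alone), adjusted by Benjamini-Hochberg over 12235 genes with a threshold of 0.05. Genes listed on several contigs were summed. CPM are edgeR's normalised exon reads, and standard errors derive from the F statistic. Neighbour ratios were log2 with a pseudocount of 0.5 CPM, and exon to intron ratios with 0.5 reads. The scripts were tested on simulated data. Alternatives included DESeq2 1.42.0 and limma-voom (limma 3.58.1). The floor of 3 reads covers counting error only, and the reads carry no molecular identifiers. Standard errors and SDs include the spread between the libraries of an age.

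The members and lists were chosen with earlier results of these data known. Genes named were the members that passed, the most abundant per kb of exon in each class, members with an unadjusted p under 0.05, and in each related list up to 3 called genes and the most abundant, which in lists where it is not named above was Park7, 2610002J02Rik (the Faap20 gene), Hsp90ab1 or Txnrd1. Exceptions are marked in the text. A gene that the rule names is not reported here. The replicate numbers did not pair the libraries (correlations of deviations from -0.236 to -0.031). The authors' own test columns in 1 file were not used.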

Additional observations from a re-analysis of the deposited data

Results flagged for a closer look

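In 4 of 42 groups of 4 libraries checked, 1 library stood apart from the other 3 by Dixon's test at the 95% level, where chance flags about 1 in 20. Gstk1 was at 3.42 CPM in P5 replicate 2 and at 5.36 to 5.66 CPM in the other P5 libraries. Gstm4 was at 9.73 CPM in P5 replicate 4 and at 16.6 to 16.9 CPM in the others. Mgst3 was at 3.19 CPM in replicate 4 of 4 weeks and at 4.42 to 4.54 CPM in the others of that age. The sum of the microsomal glutathione S-transferases was 32.2 CPM in P5 replicate 1 and 27.5 to 28.1 CPM in the other P5 libraries.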

How the results depend on the processing

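Over all genes, 977 were called higher and 1046 lower at P5. Higher calls were 577 with the replicate block, 323 at a log2 fold change of at least 1, 628 with Y-linked reads as a covariate and 619 in the libraries with such reads alone; lower calls in the last 3 settings were 349, 608 and 638. Of the members, 1 was higher and 7 lower. Leaving out single libraries gave 1 to 2 higher and 4 to 7 lower (4 without replicate 4 of 4 weeks, where 12.1% of all genes were called). Exon plus intron reads gave 3 higher, intron reads 3 higher and 4 lower, the covariate 0 higher and 4 lower, Y-positive libraries alone 0 higher, and the fold minimum 3 lower. With the replicate block 1 was higher and 6 lower, with Gstt3 lost, and the block changed no other member call. The replicate numbers share no source in the labels. Related genes were 11 higher and 13 lower: 7 to 10 higher without single libraries, and 5 higher with the block, 3 with the fold minimum, 6 with the covariate and 6 in Y-positive libraries, where the lower calls were 5, 8 and 7 in the last 3. The cause of these shifts was not tested, beyond fewer libraries in the smaller fits.

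Of 349 values of the 16 named members, 314 kept their direction and their side of the threshold. Those that reversed were Akr1a1 (-0.067, intron reads), Gstt2 (-0.21, intron reads) and Gsto1 (-0.041 without P5 replicate 2, and up to 0.11 without other libraries). Of the related genes, intron reads gave 0.0031 for Gclm, -0.13 for Clic1 and -0.65 for Park7. Park7 also reversed without P5 replicate 1 (-0.046) or replicate 1 of 4 weeks (-0.0077; up to 0.13 without other libraries), with exon plus intron reads (-0.045), with the covariate (-0.0367) and in Y-positive libraries (-0.0366). The calls for Akr1c13, Gstk1, Gstt3 and Mgst3 were lost both with the covariate and in Y-positive libraries alone; those for Akr1c19, Aldh2, Gstt1 and Sult1a1 remained. A minimum of 5 CPM in 4 libraries left Akr1c19 and Gstt1 untested. Members with at most 64 reads were kept out of the main fit, and this depth allows little comparison of them. Of these, Gstm2 had an adjusted p of 0.0337 in the edgeR fit with no filter. In the edgeR fit to Y-positive libraries alone its adjusted p was 0.0267.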
